A study of Oryza sativa Indica Group with 64 samples.

Results

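The change of the leaf transcriptome over one heated night was measured as the difference between 4 rice leaf libraries collected at dusk under warm night temperature (WNT) and 4 collected 23 h after dawn under the same treatment. These 8 libraries were chosen by their labels, WNT Dusk and WNT Dawn 23h with replicates 1 to 4, out of 64 libraries in all. Over the interval 8243 of 20525 tested genes (40.2%) changed, 4284 of them higher and 3959 lower at 23 h. The genes that rose held 22.6% of all counts at dusk and 52.7% at 23 h, and those that fell held 29.4% and then 8.85%.

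A leaf in the dark no longer fixes carbon and lives on the starch and sugars stored during the day. Its transcriptome turns over with the daily cycle, since the circadian clock and the light signal set the time at which many plant genes are transcribed, and transcripts that serve the coming morning accumulate before dawn. Warm nights raise the respiration of rice and are known to lower its grain yield and quality.

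All plants were IR64, an indica rice variety, grown in a field at IRRI in the Philippines in the dry season. WNT plants were warmed at night with an IR heater, and the labels name no heating for the control plants. The study refers to the treatment as high night temperature, abbreviated HNT. Both treatments were sampled at 8 time points, which the labels number in the order dawn, 3 h, 7 h, 10 h, dusk, 14 h, 17 h and 23 h after dawn, with 4 libraries in each of the 16 groups. The labels give neither the clock hour of dusk, the air temperature, the age of the plants nor how many heated nights came before the sampling, and they do not say whether the 4 replicates were separate plants or plots. The p-values therefore measure the spread between these samples, which may be partly technical. RNA was taken from leaf tissue, flag leaves by the study's methods, in which fewer cells of a type and less RNA per cell cannot be told apart.

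The files list genes by identifiers that start with MH, and 0 of the 57174 identifiers matched the RefSeq gene table used here. No gene could thus be named or given a function, the tissue could not be checked against leaf markers, and lists of clock and photosynthesis genes were not run. The genes are described by their direction, size, abundance and timing, and 4 by their identifiers.

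The 8 libraries held between 1714647 and 10370969 counts on genes, and 59.8% to 74.9% of the reads were counted on a gene. The shallowest was WNT dusk replicate 3, where a share of 3 counts is 0.000175% of the library, against 5.80e-05% or less in the 4 libraries of 23 h. Replicate 3 at 23 h had 9.97% of its reads aligned to several places, against 3.28% to 4.78% in the other 3, and the lowest share of reads on genes. Principal component 1 of the 8 libraries, with 52.4% of the variance, separated dusk from 23 h. Component 2, with 21.4%, separated replicates 1 and 4 of 23 h from replicates 2 and 3, while the 4 dusk libraries lay between them. Groups were not sharply separated. Of the 32 libraries of both treatments from dusk to 23 h, 20 correlated more with another group than with their own. For 9 of these the nearest group was the other treatment at the same time point, and for 10 it was a neighbouring time point, including WNT 23 h replicates 2 to 4, which were nearest to a dawn group. The nearest group was 2 or more time points away for 1 library only. The library labelled WNT 17 h replicate 3 correlated most with the WNT 10 h group (r = 0.966) and less with its own (r = 0.944), and its own values are given where 17 h is described.

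Counts were expressed as CPM, the reads of a gene relative to the total of its library, with TMM factors that correct each library for its composition, and were tested with edgeR's quasi-likelihood test. A gene was called at a Benjamini-Hochberg adjusted p under 0.05. By this rule 40.2% of the tested genes were called between WNT dusk and WNT 23 h, 20.9% higher and 19.3% lower. The change was at least 2-fold for 4876 of them, 23.8% of all tested genes. The night thus altered the leaf transcriptome in both directions to a like extent. That balance rests on the scaling. With the library sizes alone and no TMM factors, 8502 genes were called, 2208 higher and 6294 lower, and the median log2 fold change of all tested genes was -0.31 in place of 0.06. The TMM factors themselves lay between 1.12 and 1.28 at dusk and between 0.767 and 1.00 at 23 h.

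The lowest and highest values of the 4 libraries did not overlap between dusk and 23 h for 7210 genes, 35.1% of those tested. Of the 8243 called genes, 6595 (80.01%) had no overlap, 3472 of them higher and 3123 lower. The other called genes differed on average while at least 1 library of a group lay within the range of the other group. A further 615 genes had no overlap and were not called.

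Among the genes that rose, the median log2 fold change was 1.11, a 2.16-fold increase, and the middle 50% of them lay between 0.67 and 1.86. Among those that fell the median was -1.25, a 2.38-fold decrease, with the middle 50% between -1.97 and -0.81. The median standard error of a change was 0.24 for the former and 0.29 for the latter. A rise of at least 4-fold was seen for 976 genes and a fall of that size for 966. Rises of at least 16-fold numbered 178 and falls 156, and at 64-fold or more there were 38 and 46. The tails were of like length in both directions, as the histogram of fold changes shows. A gene at 0 counts in all 4 libraries of a group has a fitted fold change that depends on the prior count. This held for 15 called genes at dusk and 17 at 23 h, and with those at the bound set by 3 counts over the group the medians stayed at 1.11 and -1.25. So few genes could hardly move a median, so this does not show how well their own fold changes are known.

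**Figure D1:**
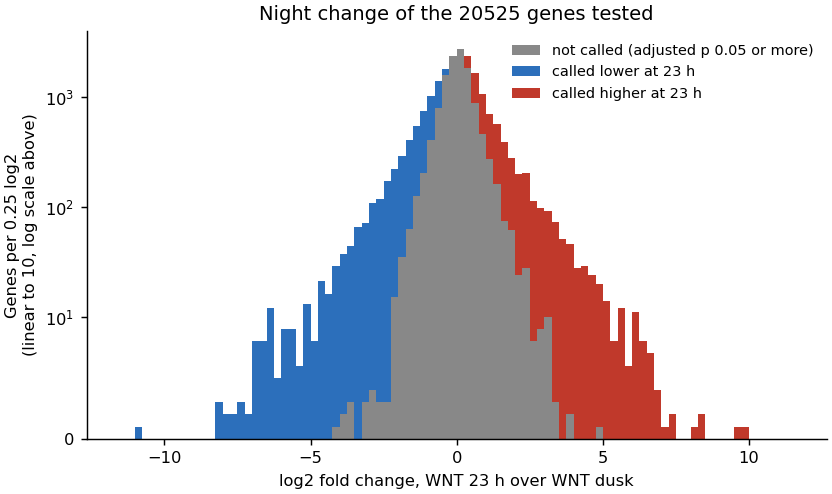
Histogram of the log2 fold change of WNT 23 h over WNT dusk for the 20525 tested genes, in bins of 0.25 log2 on a vertical axis that is linear to 10 genes and logarithmic above. The 4284 genes called higher (red) and 3959 called lower (blue) reach similar distances from 0, and genes that were not called (grey) crowd near 0.

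The rise took up a large share of the leaf's messenger RNA. The genes called higher held 22.4%, 21.9%, 23.6% and 22.5% of the counts in WNT dusk replicates 1 to 4, with a mean of 22.6% ± 0.719 (SD, n = 4). In WNT 23 h replicates 1 to 4 they held 52.4%, 52.9%, 46.7% and 58.7%, a mean of 52.7% ± 4.87 (SD, n = 4). The groups were far apart, with replicate 3 the lowest and replicate 4 the highest of 23 h. The genes called lower went the other way. They held 30.3%, 30.3%, 27.4% and 29.4% of the counts at dusk, with a mean of 29.4% ± 1.35 (SD, n = 4), and 8.49%, 8.82%, 11.8% and 6.29% at 23 h, with a mean of 8.85% ± 2.27 (SD, n = 4). The same 2 libraries again marked the ends of the 23 h group. Since the genes were chosen by the contrast between these libraries, the shares are a description and carry no test.

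The same gene lists had not been chosen on the means of the other WNT time points or of the control libraries, where the shares followed the time of day. Under WNT the risers held 55.9% ± 4.57 (SD, n = 4) of the counts at dawn and 21.1% ± 0.305 (SD, n = 4) at 10 h. The fallers held 8.14% ± 1.79 (SD, n = 4) at dawn and 33.7% ± 0.612 (SD, n = 4) at 10 h. Dusk thus lay close to 10 h and 23 h close to dawn in both shares. In the control leaves the risers moved from 22.8% ± 1.05 (SD, n = 4) at dusk to 56.9% ± 0.966 (SD, n = 4) at 23 h. The control values at 23 h lay between 55.8% and 57.8%, within the range of the WNT libraries, which were more widely spread.

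**Figure D2:**
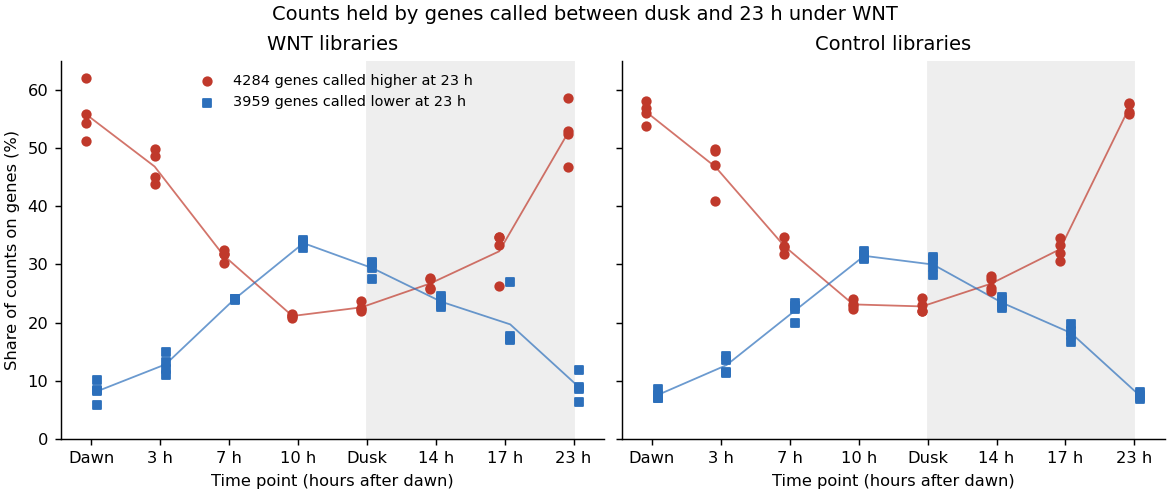
Share of the counts on genes, in %, held by the 4284 genes called higher (red circles) and the 3959 called lower (blue squares) between WNT dusk and WNT 23 h, in each of the 4 libraries at 8 time points under WNT (left) and control (right). Lines join group means and grey marks the interval from dusk to 23 h, over which the higher genes went from 22.6% to 52.7% under WNT and from 22.8% to 56.9% under control. Replicate 3 at WNT 17 h, with 26.2% and 27.0%, lies away from the other 3.

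Counts were concentrated on fewer genes at 23 h than at dusk. The top 10 genes by count took 3.05% to 4.53% of a library's counts at WNT dusk and 5.98% to 11.9% at 23 h. The number of genes needed to reach 50% of the counts was 1294 to 1635 at dusk and 593 to 1169 at 23 h. It was 1383 to 1804 at WNT 14 h and 1323 to 1552 at WNT 17 h, so it fell between 17 h and 23 h. In control leaves it was 1112 to 1512 at dusk and 599 to 850 at 23 h. At WNT dawn it was 487 to 1096. Neither measure overlapped between WNT dusk and WNT 23 h. Replicate 3 was the least concentrated library of 23 h on both measures, and replicate 4 the most.

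The most abundant transcripts were replaced to a large degree. Of the 100 genes with the highest mean CPM, 51 were shared by dusk and 23 h. Any pair of dusk libraries shared 77 to 88 of their own top 100 and any pair of 23 h libraries 62 to 89, whereas a dusk and a 23 h library shared 40 to 52. Among the top 100 at dusk, 35 were called lower and 24 higher, and among the top 100 at 23 h, 72 were called higher and 2 lower. This follows in part from the selection, since a gene that rose is more likely to be among the highest at 23 h.

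The share of genes called, and the direction, went with abundance. Abundance was the mean CPM over all 64 libraries. Below 1 CPM, 12.9% of 2083 genes were called and 34.0% of those were higher at 23 h. Between 5 and 20 CPM, 2124 of 5228 (40.6%) were called, 43.8% of them higher. From 100 CPM upwards, 1353 of 2255 (60.0%) were called and 68.0% of them were higher. With TMM factors, rare transcripts were thus called less often and mostly as falling, and abundant ones mostly as rising. With library size only, 26.0% of all calls were higher, and the split by abundance was not computed under that scaling. The median standard error fell from 0.87 below 1 CPM to 0.23 from 100 CPM, so the precision of a change also differed between these classes.

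Of 4891 genes that were called, did not overlap between the groups, were counted in all 8 libraries and averaged at least 10 CPM, the 2 with the largest rise and the 2 with the largest fall are given here. They are extremes picked on these same 8 libraries. Their separation between dusk and 23 h and their adjusted p for that change follow from the choice and are a description only. Steps within the night that start at dusk or end at 23 h reuse those libraries. Their values for these genes are likewise a description. Of the 4891 genes, MH12t0340900 rose most. It stood at 3.05, 6.82, 6.38 and 2.88 CPM in the dusk replicates and at 873, 638, 388 and 806 CPM in those of 23 h. Replicate 3 was the lowest library of 23 h. The log2 fold change was 7.25 ± 0.70 (SE), with an adjusted p of 2.97e-12 by edgeR. At 14 h it ranged from 4.28 to 30.6 CPM, with 2 of the 4 libraries within the range of dusk, and the change from dusk was not called (adjusted p = 0.107 by edgeR). At 17 h it ranged from 17.7 to 91.6 CPM, and from 27.7 to 91.6 CPM without replicate 3. In the day it was at 881 ± 169 CPM (SD, n = 4) at dawn and 1.67 ± 0.257 CPM (SD, n = 4) at 10 h.

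The gene MH02t0707200 rose later in the night. It was found at 0.469, 2.73, 2.28 and 0.592 CPM at dusk, on 4 to 12 reads, and at 137, 120, 83.1 and 215 CPM at 23 h. By the way it was chosen, its libraries of 23 h did not overlap those of dusk. The log2 fold change was 6.87 ± 0.60 (SE), with an adjusted p of 1.56e-13 by edgeR. It was still at 0.501 to 1.37 CPM at 14 h, which is within the range of the dusk libraries, and at 1.06 to 3.599 CPM at 17 h. Without replicate 3 the 17 h libraries were at 3.07 to 3.599 CPM, above those of dusk. Between 17 h and 23 h the log2 change was 5.66 ± 0.53 (SE) with an adjusted p of 7.08e-12 by edgeR. Without that library it was 5.39 ± 0.57 (SE), with an adjusted p of 6.72e-10. Most of its rise thus fell between 17 h and 23 h in both cases.

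Of the same 4891 genes, MH01t0812700 fell most. It was at 195, 215, 96.1 and 189 CPM at dusk and at 0.582, 0.681, 0.365 and 0.756 CPM at 23 h, on 3 to 6 reads. The lowest dusk library, the shallow replicate 3, was still far above every library of 23 h. The log2 fold change was -8.21 ± 0.75 (SE), with an adjusted p of 5.75e-13 by edgeR. It had already dropped to 19.2 to 31.97 CPM at 14 h, with a log2 change from dusk of -2.85 ± 0.52 (SE) and an adjusted p of 0.000711 by edgeR.

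The gene MH07t0397700 was one of the most abundant transcripts at dusk. It stood at 4041, 4312, 2536 and 2746 CPM in the dusk replicates and at 7.43, 14.9, 14.9 and 15.4 CPM in those of 23 h. Replicate 1 of 23 h was lower than the other 3. The log2 fold change was -8.02 ± 1.14 (SE), with an adjusted p of 8.24e-08 by edgeR. At 14 h it was at 140 to 181 CPM. At 17 h, 3 libraries were at 16.3 to 40.8 CPM and the library labelled replicate 3 at 5458 CPM. That same library held 124.3 CPM of MH01t0812700 against 3.73 to 7.53 CPM in the other 3, so both falling genes were near their dusk or 10 h level in it. The WNT means at 10 h were 11247 CPM for MH07t0397700 and 245 CPM for MH01t0812700.

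**Figure D3:**
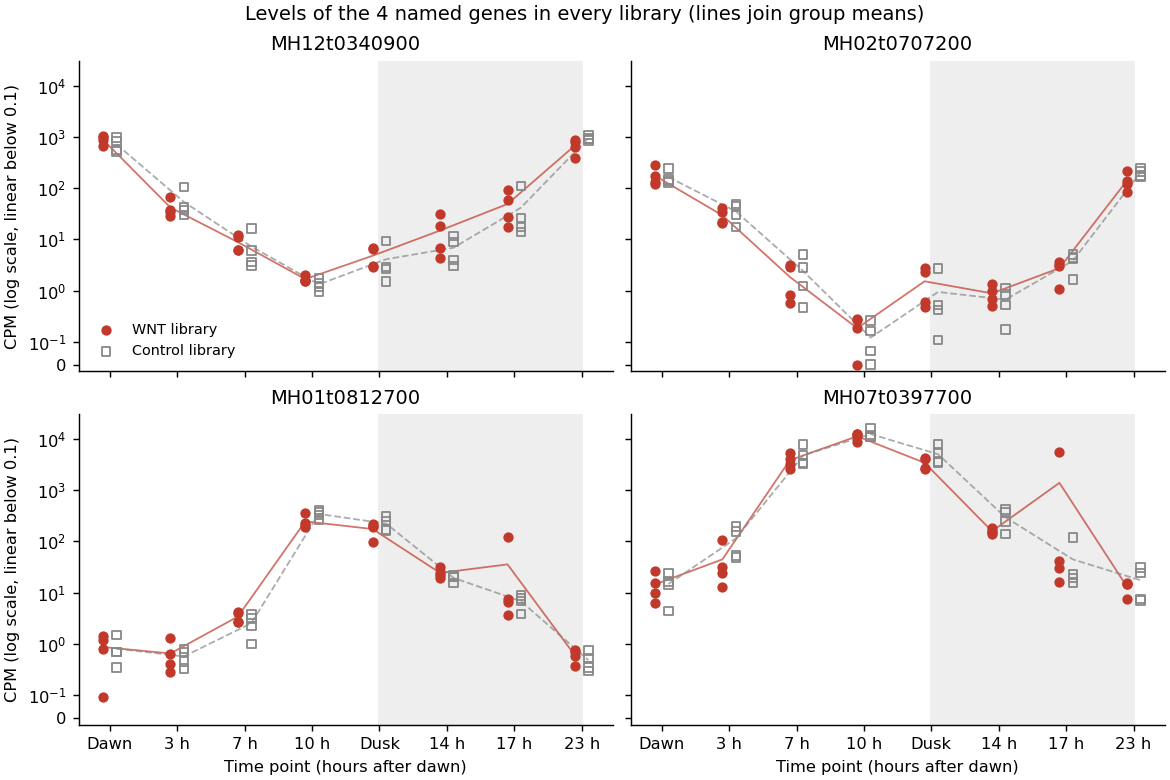
CPM of the 4 named genes in every WNT library (red circles) and control library (open grey squares) at 8 time points, on an axis that is logarithmic above 0.1 CPM and linear below, with lines joining group means and grey marking dusk to 23 h. The 2 upper genes climb from under 10 CPM at dusk to over 80 CPM at 23 h, the 2 lower genes drop, and the library labelled WNT 17 h replicate 3 stands at 5458 CPM of MH07t0397700 against 40.8 CPM or less in the other 3.

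Complete presence and absence was rare. In 13 genes all 4 libraries of one group had 0 counts while each library of the other had at least 3. Of these, 8 were seen at 23 h but not at dusk, at mean levels of 0.596 to 4.13 CPM, which are low. The remaining 5 were seen at dusk but not at 23 h. One of them, MH09t0168800, was singled out after its values were seen, because it was not rare. It stood at 26.6, 23.4, 25.05 and 16.5 CPM in the dusk replicates, on 55 to 227 reads, and at 0 in all 4 libraries of 23 h. Against a floor of 3 counts over the group, 0.108 CPM, its level was at least 213-fold lower at 23 h. In control leaves it was at 23.8 to 47.5 CPM at dusk and 0 to 0.398 CPM at 23 h, on 0 to 3 reads. At WNT 10 h it was at 47.6 to 104.9 CPM, and at WNT 14 h already at 0.601 to 1.03 CPM. At WNT 17 h the library labelled replicate 3 held 29.8 CPM, on 281 reads, against 0.642, 0.337 and 0 CPM in replicates 1, 2 and 4.

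The course of the change within the night was described by the position of each called gene at 14 h and 17 h, with the mean log2 CPM at dusk set to 0% and that at 23 h to 100%. At 14 h the median riser had come 19.1% of the way and the median faller 19.8%. At 17 h the medians were 41.4% and 37.9%. Genes differed widely. The middle 50% of the risers lay between -0.22% and 39.5% at 14 h, and 25.2% of the risers were then still below their dusk level. At 17 h, 13.0% of the risers and 6.26% of the fallers had gone over 75% of the way, and without replicate 3 these shares were 21.0% and 18.1%. These positions are a description with no test, since the genes were chosen on both ends of the interval.

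By library, the median riser at 17 h was at 41.0%, 51.7%, 21.2% and 50.8% of the way in replicates 1 to 4. The median faller was at 49.98%, 52.1%, 1.53% and 48.9%. Replicate 3 was thus at its dusk level for the falling genes while the other 3 libraries lay close together. Without it the medians at 17 h were 48.7% for the risers and 50.9% for the fallers. The scaling also bears on the positions. From CPM without TMM factors the risers had reached 44.9% at 14 h and 61.0% at 17 h, and the fallers 7.76% and 29.3%.

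In edgeR's tests of single steps most calls came after 17 h. Between WNT dusk and 14 h, 502 genes were called (2.45% of those tested), 174 higher (0.848%) and 328 lower (1.60%). Between 14 h and 17 h, 168 were called (0.819%), 157 higher (0.765%) and 11 lower (0.0536%). Between 17 h and 23 h, 4765 were called (23.2%), 2381 higher and 2384 lower (11.6% each). By limma-voom with sample quality weights the counts of the 3 steps were 2403, 2718 and 5091, and the calls between 14 h and 17 h were 1422 higher and 1296 lower. DESeq2 gave 803, 333 and 5120. How many genes change early thus depends on the tool. The steps share libraries with each other and with the whole interval, so their counts are set side by side only. Without the library labelled WNT 17 h replicate 3, the step from 14 h to 17 h had 622 calls, 326 higher and 296 lower, and the step from 17 h to 23 h had 3067, 1829 higher and 1238 lower. The few falling genes between 14 h and 17 h thus rested on that library. Leaving out 14 h replicate 1, 3 or 4 also lowered the count of that step by over 1.5 times, to 100, 91 and 72, and so did leaving out 17 h replicate 2 (109) or 4 (86). The count from dusk to 14 h dropped to 283, 257 and 271 without dusk replicates 1, 2 and 4 and to 240 and 212 without 14 h replicates 1 and 4. With fewer libraries a step also has less power, and the hours covered by the steps are unequal.

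**Figure D4:**
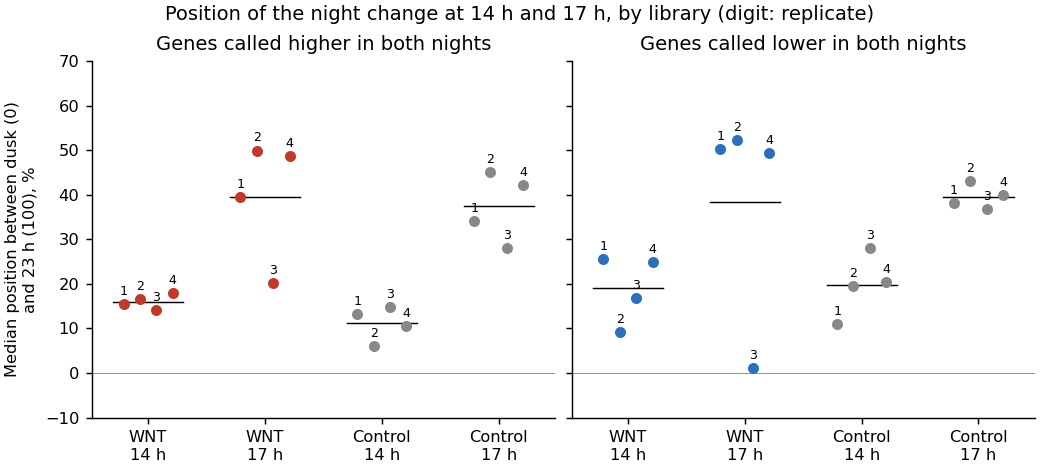
Median position, in %, of the genes called in both nights on the way from dusk (0) to 23 h (100) at 14 h and 17 h, for each library under WNT (coloured) and control (grey), with the replicate number beside each point and a line at the mean of the 4. The library labelled WNT 17 h replicate 3 lies at 20.2% for higher and 1.18% for lower genes, away from the other 3.

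The night under control conditions was tested in the same way, on libraries that the WNT comparison did not use. Between control dusk and control 23 h, 9622 genes were called (46.9% of those tested), 4648 higher and 4974 lower. Of the 4284 genes that rose under WNT, 3645 (85.1%) were called higher in the control night, against 22.6% of all tested genes. Of the 3959 that fell, 3525 (89.04%) were called lower, against 24.2% of all tested genes. No gene was called in opposite directions. The 7170 genes called in both nights made up 86.98% of the WNT list and 74.5% of the control list. The night change under WNT was thus shared by most of its genes with the unheated night.

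The difference between the 2 nights was tested for each gene as an interaction. By edgeR no gene passed, with a smallest adjusted p of 0.145, and 1132 genes had an unadjusted p under 0.05. DESeq2 called 2 genes and limma-voom with sample quality weights called 2. A p above the threshold does not show that a gene changed alike in both nights. In simulated data only 21 of 100 differences of 2-fold and 81 of 100 of 4-fold were called. The approximate 95% interval of the difference lay within 1 log2 unit on either side of 0 for 3855 of the 8243 called genes (46.8%). The median half-width of the interval was 0.74. For the other genes a difference of 2-fold between the nights was not excluded by its interval. Another 1073 genes were called under WNT and not under control, and 2452 the other way round. Of the 1073, 1014 (94.5%) had the same sign in the control night, and 103 had an unadjusted interaction p under 0.05, so the separate lists do not show genes that changed in 1 night alone.

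The 4 named genes changed in the same direction in the control night. The log2 fold changes over the control night were 7.98 ± 0.72 (SE) for MH12t0340900 and 8.12 ± 0.63 (SE) for MH02t0707200. For MH01t0812700 the control change was -8.83 ± 0.76 (SE), and for MH07t0397700 it was -8.16 ± 1.15 (SE). The difference of WNT minus control was -0.73 log2 for MH12t0340900, with a 95% interval from -2.40 to 0.94. It was -1.25 for MH02t0707200, with an interval from -3.03 to 0.52. Neither interval excluded 0, and both were wide. For MH01t0812700 the difference was 0.62, with an interval from -1.70 to 2.95, and for MH07t0397700 it was 0.14, with an interval from -2.29 to 2.58.

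**Figure D5:**
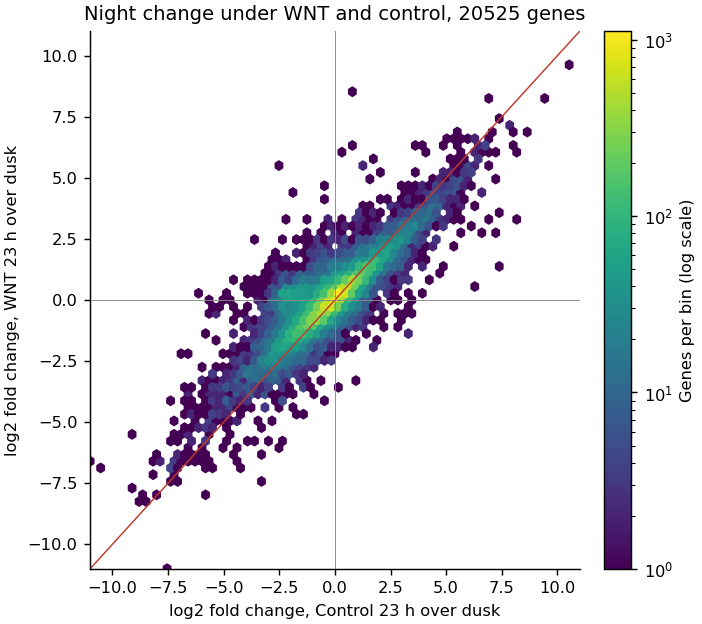
Log2 fold change of 23 h over dusk under WNT (vertical) against that under control (horizontal) for the 20525 tested genes, coloured by the number of genes per bin on a log scale, with a red line where the changes are equal. The genes lie along that line, and no gene was called in opposite directions in the 2 nights.

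The course within the night was set side by side in both treatments. For the 3645 genes that rose in both nights, the median position at 14 h was 16.6% under WNT and 11.9% under control, and at 17 h it was 39.7% and 37.8%. For the 3525 that fell in both, it was 19.3% and 19.1% at 14 h and 38.1% and 38.8% at 17 h. By library, the WNT risers at 14 h lay between 14.0% and 18.0% and the control risers between 5.98% and 14.8%, which overlap. The lowest of these was control 14 h replicate 2, a library with 21.7% of its reads aligned to several places. At 17 h the WNT libraries other than replicate 3 were at 49.3% to 52.4% for the fallers, above the control libraries at 36.9% to 43.2%, while replicate 3 was at 1.18%, below all of them. For the risers the WNT libraries other than replicate 3 were at 39.5%, 49.9% and 48.7%, which overlaps the control libraries at 28.1% to 45.0%. Each position is relative to the change of its own treatment from dusk to 23 h, and these changes differed in size. For the 3959 genes called lower under WNT, the median log2 change was -1.25 under WNT and -1.42 under control. A higher position is thus not the same as a larger fall by 17 h. No test of the order at 17 h was made.

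The night change was largely undone over the day. Between WNT 10 h and WNT dawn, 10540 genes were called (51.4% of those tested). The night comparison did not use the means of these libraries, but they shared its gene filter and estimate of spread. Of the genes that rose from dusk to 23 h, 3654 (85.3%) were higher at dawn than at 10 h, against 24.5% of all tested genes, and 1 was lower. Of those that fell, 3643 (92.0%) were lower at dawn than at 10 h, against 26.8% of all tested genes. Over the 6 WNT time points other than dusk and 23 h, 64.3% of the risers had their highest mean at dawn and 25.05% at 3 h, against 22.5% and 17.7% of all tested genes. The fallers had their highest mean at 10 h in 63.96% of cases and at 7 h in 19.8%, against 20.9% and 14.4%. On libraries whose means did not choose them, the risers were thus mostly highest at dawn or 3 h and the fallers at 7 h or 10 h.

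The 23 h libraries were also compared with those of dawn. Between WNT dawn and WNT 23 h, 25 genes were called (0.122% of those tested), 6 higher (0.0292%) and 19 lower (0.0926%) at 23 h, and 2582 had an unadjusted p under 0.05. DESeq2 called 326, 224 higher and 102 lower, and limma-voom 165, 67 higher and 98 lower, so neither the count nor the larger direction was settled. The count by edgeR also moved with the libraries. It grew to 0.678% of the tested genes without dawn replicate 1, and shrank to 14 genes without dawn replicate 3, 6 without dawn replicate 4, 5 without 23 h replicate 1 and 16 without 23 h replicate 4. It shares the 23 h libraries with the night comparison, so the 25 and 8243 calls are given side by side.

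Replicates at 23 h were more variable than those at dusk. For genes of at least 5 CPM, the median SD of log2 CPM over the 4 libraries was 0.31 at WNT 23 h and 0.26 at WNT dusk. In control leaves it was 0.19 at 23 h and 0.26 at dusk, the other order. The biological coefficient of variation, the relative spread between replicates beyond counting, was 0.422 at WNT 23 h and 0.238 at WNT dusk. It was 0.248 and 0.329 in the control groups. Each library's mean correlation with the others of its group ranged from 0.903 to 0.928 at WNT 23 h and from 0.938 to 0.957 at WNT dusk. The lowest belonged to 23 h replicate 3, the library with many reads aligned to several places, and the part of that in the spread was not tested. Without it 8104 genes were called over the night, and 7511 of them were among the 8243.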

How the data were processed

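RNA-seq libraries of rice leaves were assigned to groups by their labels. The authors deposited raw counts of reads per gene for 57174 genes, and the submitters' processing notes name HISAT2 2 and HTSeq 0.6.0. The genome build, the gene annotation and the use of strand are not given in the sources used here, so overlapping, antisense and near-identical genes are uncertain. The 5 closing lines of each file, reads not counted on a gene, were kept out of library sizes and tests, and made up between 25.1% and 40.2% of the reads of the 8 libraries.

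Genes were kept by filterByExpr on 16 groups (count minimum 10, total 15). All 64 libraries were fitted with 1 mean per group (glmQLFit, robust) and contrasts were tested with glmQLFTest in R 4.3.3 with edgeR 4.0.16. Benjamini-Hochberg adjustment ran over 20525 genes, and the common biological coefficient of variation came to 0.332. The study's methods name edgeR and the threshold. Positions and correlations used log2 CPM with a prior count of 2. Named genes were those ranked first by fold change under the conditions stated with them, 2 in each direction. The model was tested on simulated data with changes set in genes of at least 5 CPM. Over the WNT night it recovered 58 of 100 changes of 2-fold and 96 of 100 of 4-fold, with 7 unchanged genes called. For the difference between the nights it recovered 21 of 100 and 81 of 100, with 2 unchanged genes called. Each simulated gene had 1 spread in all groups, although the coefficient of variation was 0.422 at WNT 23 h and 0.238 at WNT dusk. Over the simulated WNT night all genes without a set change kept their dusk mean. The recovery counts thus come from a simpler setting than the data. Alternatives were RLE factors, library size only, other filters, DESeq2 1.42.0, limma-voom (limma 3.58.1), a replicate block, fewer libraries in the fit, an adjusted p under 0.01 and leaving out each library. No WNT library of dusk and 23 h matched its own replicate number best, and the main model used no pairing. No replicate pair within these groups agreed within sampling noise, with a chi-square per gene of at least 7.15. Standard errors were derived from the edgeR test, as the absolute log2 fold change over the square root of its F statistic. They and the intervals built on them are therefore approximate. Both include the spread between replicates. Floors of 3 counts cover counting error only, as reads copied by PCR are not independent molecules. Figures were drawn with matplotlib.

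The members and lists were chosen with earlier results of these data known.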

Additional observations from a re-analysis of the deposited data

Results flagged for a closer look

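For the WNT dusk, 14 h, 17 h and 23 h groups, the sample measures and the 4 named genes were checked for a library far from the other 3, in 56 checks of 4 values. Chance flags about 1 in 20 such checks, and 6 were flagged, many of which are not independent of each other. Of these, 5 concern the library labelled WNT 17 h replicate 3. Its mean correlation with its own group was 0.944, against 0.958 to 0.959 in the other 3. Genes called lower over the night held 27.0% of its counts, against 17.1% to 17.6%, and their median position was 1.53% of the way from dusk to 23 h, against 48.9% to 52.1%. It held 124.3 CPM of MH01t0812700, against 3.73 to 7.53 CPM, and 5458 CPM of MH07t0397700, against 16.3 to 40.8 CPM. This library does not enter the contrast between dusk and 23 h, although it shares the estimate of spread. The last flagged value was 7.43 CPM of MH07t0397700 in WNT 23 h replicate 1, against 14.9 to 15.4 CPM in the other 3.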

How the results depend on the processing

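The 8243 calls between WNT dusk and 23 h ranged from 7165 to 8104 when 1 library was left out, and those of at least 2-fold from 4466 to 5151. All alternatives stayed within 1.5 times the main counts, and the 4 named genes kept their direction and call in 17 of 17. The genes called differed more than the counts. Of the 8243, 6167 (74.8%) were called again with library size only, 6645 (80.6%) from the groups compared alone and 8117 (98.5%) with the replicate block. The control night gave 8881 to 9513 calls, and 10 h to dawn 9730 to 10160. The difference between the nights had 0 calls without any 1 library (0 to 0), 2 by DESeq2 and 2 by limma-voom. From dusk to 14 h there were 322 calls with no filter, 803 by DESeq2, 2403 by limma-voom, 191 at an adjusted p under 0.01, and 212 to 561 without 1 library. From 14 h to 17 h these were 1.1e+02 (rounded), 333, 2718, 78 and 72 to 622, and 53 from the groups compared alone. From 17 h to 23 h there were 2912 from those groups alone, 3020 at 0.01, and 3067 to 5118. From dawn to 23 h there were 7 with library size only, 40 with CPM above 1 in at least 4 libraries, 326 by DESeq2, 165 by limma-voom, 15 from the WNT libraries, 0 from the groups compared alone (1599 at an unadjusted p under 0.05), 5 at 0.01, and 5 to 1.4e+02 (rounded). The causes were not tested. With library size only, 26.0% of the night's calls were higher in place of 52.0%, 23.2% in place of 48.3% in the control night, 17.7% in place of 49.97% from 17 h to 23 h, 49.9% in place of 34.7% from dusk to 14 h, and 29.8% in place of 47.8% from 10 h to dawn. Positions without TMM factors were 44.9%, 61.0% and 7.76% (risers at 14 h and 17 h, fallers at 14 h). With TMM factors, risers of at least 2-fold were at 14.5% at 14 h. Without 1 library the risers ranged from 15.7% to 20.7% and 37.5% to 48.7% at 14 h and 17 h, the fallers from 15.8% to 25.1% and 33.1% to 50.9%, and the shares of counts at 23 h from 44.5% to 54.6% and 7.64% to 8.81%.

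Same-numbered WNT dusk and 23 h libraries deviated from their group means with correlations of -0.22, -0.27, 0.07 and -0.19. In the control groups these were 0.31, -0.27, -0.27 and -0.27, and only control replicate 1 matched its own number best. With so few libraries, these values cannot exclude that a number marks a shared plot or batch. With the replicate block 8231 genes were called, 8117 of them among the 8243.

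Depth limits rare genes most. Below 1 CPM the median standard error was 0.87 on the log2 scale, and WNT dusk replicate 3 was the shallowest library. Fitted fold changes of genes at 0 in a group depend on the prior count.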

Other observations

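Genes listed next to each other in the files often changed in the same direction over the warm night. In 2146 pairs of adjacent lines both genes were called, and 1407 of these pairs (65.6%) had the same direction, against 50.1% from the split of calls alone. In 1490 pairs of called genes 10 lines apart, 52.8% had the same direction. Neighbours on the list can be near-identical or overlapping genes, and how many pairs were such was not tested. The share of genes called was alike over the 12 groups of identifiers with prefixes 01 to 12, from 36.8% to 42.6%.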
